A study of Homo sapiens with 9 samples.

Results

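The genes described here are 30 targets of the transcription factor p53, among them *CDKN1A* and *MDM2*, named by symbol. Of these, 28 were measured by 82 probe sets that the annotation of the array assigns to 1 gene each, out of 49293 probe sets tested and 18132 genes with such a probe set. The other 2 genes were not analysed here. Transcript levels were measured 72 h after transfection of NCI-H1993, an established line of lung adenocarcinoma cells, with siTDRD9-1 or siTDRD9-2, 2 siRNAs against *TDRD9*, or with siControl, a control siRNA. *TDRD9* encodes a Tudor-domain RNA helicase that is best known from the germline, where it acts in the silencing of transposons. Each group held 3 independent cultures with 1 Affymetrix PrimeView array each, so 9 arrays in all, and no group carried a further treatment. All 9 cultures came from this single line, which cell line catalogues list with a mutated p53 gene. The arrays did not measure the state of p53.

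p53 is activated by DNA damage and other stress and switches on genes by binding a pair of short half-sites close to or within them. Its best known target is *CDKN1A*, which encodes the cyclin-dependent kinase inhibitor p21 and holds cells before division. Another is *MDM2*, whose product marks p53 for destruction and so closes a feedback loop. Further targets encode DNA repair proteins, death receptors and metabolic enzymes, and many of them also answer to transcription factors other than p53.

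To show where such sites stand in the set, the region from 250 bases before to 50 after the annotated start of each gene was searched in the RefSeq table for GRCh38.p14. For 23 of the 28 genes the table held 34 such windows. The search used the 10-letter p53 half-site consensus, which is its own reverse complement, so that both strands were covered. An exact half-site stood in 5 of the 34 windows (14.7%), 1 window in each of 5 genes. Of all 35116 windows in the table, 6.63% held one, and 10 windows (0.0285%) held a pair of exact half-sites up to 13 bases apart. The stretches below are the members with an exact half-site, in capitals, each on the strand of its gene. In *MDM2* no half-site was exact, and the capitals mark the 20 bases of its closest pair, which had 2 mismatches. For genes without an exact half-site only a pair without a gap was printed, and genes of 1 chromosome were left out. Further pairs with mismatches may therefore be unprinted. Pairs with at most 2 mismatches and up to 13 bases apart stood in 9 of the 34 windows (26.5%), in 6 genes, and in 7.82% of all windows.
*DDB2* (chr11:47214975-47215003, plus strand): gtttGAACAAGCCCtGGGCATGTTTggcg
*FAS* (chr10:88991299-88991328, plus strand): cggaactcctGGACAAGCCCtgacaagcca
*AEN* (chr15:88621296-88621325, plus strand): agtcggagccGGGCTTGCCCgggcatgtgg
*SESN1* (chr6:109009018-109009047, minus strand): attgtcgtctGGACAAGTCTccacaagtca
*PLK2* (chr5:58460199-58460228, minus strand): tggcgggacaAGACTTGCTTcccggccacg
*MDM2* (chr12:68808918-68808947, plus strand): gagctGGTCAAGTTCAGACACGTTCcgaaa
In *DDB2* the pair of half-sites was separated by 1 base and lay from base 6 to base 26 after the start. The other 4 exact half-sites lay between 132 and 25 bases before the start, and the *MDM2* pair between 94 and 75 bases before it. A match of letters is not a measured site. The windows of *CDKN1A*, *POLH*, *KLF4* and *XPC*, whose transcripts are described below, held no exact half-site, which says only that these letters are not in these windows.

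Levels are log2 signals made with RMA (robust multi-array average), and differences are log2 differences with their standard error (SE) from 1 limma model of all 9 arrays. A gene is described by its brightest probe set, the one of highest mean signal, and a difference passed when its p, adjusted by the Benjamini-Hochberg method over all 49293 probe sets, was under 0.01. The array medians lay between 5.75 and 5.80, and the arrays of 1 group correlated at 0.994 to 0.998. The targeted gene, *TDRD9*, had 22.1% of its siControl signal with siTDRD9-1 (difference -2.18) and 61.7% with siTDRD9-2 (difference -0.70). The call with siTDRD9-2 stood only without siTDRD9-1 culture 1 or 3 when 1 array was left out (adjusted p of up to 0.0469). The mean level of 9 epithelial markers stood between 11.8 and 11.9 in all 9 arrays, although the lung lineage factor *NKX2-1* averaged only 6.18. That of 6 intestinal markers stood between 4.12 and 4.30, and that of 7 markers of fibroblasts, blood and endothelium between 4.20 and 4.61. Of these 7, *CDH5*, an endothelial cadherin gene, passed with siTDRD9-2 (0.72, adjusted p = 0.0085), and *COL1A1*, a collagen gene, had 0.48 with siTDRD9-1 (adjusted p = 0.0121). The poly-A spike-in transcripts, which are added during labelling, lay between 7.44 and 7.83 with siTDRD9-1 and between 7.70 and 7.87 with siTDRD9-2, against 8.34 to 8.60 with siControl. Their 3′ probe sets exceeded their 5′ ones by 0.85 to 1.03 with siTDRD9-1 and 0.77 to 1.05 with siTDRD9-2, against 1.14 to 1.47 with siControl. The 3′ probe set of 18S rRNA lay between 13.1 and 13.7 with siTDRD9-1 and between 13.2 and 13.9 with siTDRD9-2, against 11.3 to 12.4 with siControl. In all 3 measures the arrays of the 2 TDRD9 siRNAs overlapped each other and not siControl. Their part in the differences from siControl was not tested.

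With siTDRD9-1 some p53 target genes were higher and others lower than with siControl. *CDKN1A*, *TNFRSF10B* and *POLH* rose and *PLK2* and *KLF4* fell, and no difference reached 2-fold. The 3 of 28 genes that rose stand beside 1.25% of all genes that rose, and the 2 that fell beside 2.80% that fell. At an unadjusted p under 0.05, 6 members were higher and 9 lower, against 6.99% and 16.0% of all genes. Over all probe sets of the members, 7 of 82 (8.54%) passed, against 4.54% of all probe sets, and 0 of 82 passed with a change of at least 2-fold, against 0.714%. The median difference over the 28 genes was 0.0091, against -0.026 over all genes, and 15 were positive (53.6%, against 44.1% of all genes) and 13 negative. In RNA from whole cultures, a change in every cell cannot be told apart from a change in a share of the cells.

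With siTDRD9-2, *FAS* and *CCNG1* fell relative to siControl and 0 of the 28 genes rose. In the same limma fit 2 genes, *TNFRSF10B* and *XPC*, were higher at an unadjusted p under 0.05, against 7.50% of all genes, and 1.32% of all genes rose at the adjusted threshold. The 2 genes that fell stand beside 3.03% of all genes, and the 7 lower at an unadjusted p under 0.05 beside 16.0%. Of the 82 probe sets, 2 (2.44%) passed, against 5.19% of all probe sets, and 0 did so with at least 2-fold, against 0.809%. The median difference was -0.1337, against -0.0563 over all genes, with 7 positive (25%, against 36.9% of all genes) and 21 negative. The siControl arrays are the same in both comparisons, so the 2 sets of differences are not independent.

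Between the 2 siRNAs, with siTDRD9-1 against siTDRD9-2, *CDKN1A* and *POLH* were higher and *PLK2* and *XPC* lower. The 2 higher genes stand beside 1.27% of all genes and the 2 lower beside 1.11%. At an unadjusted p under 0.05, 11 of 28 members (39.3%) were higher, against 11.0% of all genes, and 5 (17.9%) lower, against 10.3%. Of the 82 probe sets, 6 (7.32%) passed, against 1.95% of all probe sets, and 0 passed at 2-fold or more, against 0.306%. The median difference was 0.1401, against 0.0237 over all genes, and 19 members were positive (67.9%, against 54.8% of all genes) and 9 negative. The counts of passing members depend on single arrays. With 1 array left out in turn, 1 to 3 members rose with siTDRD9-1 against siControl, 0 to 2 fell with siTDRD9-2, and 1 to 3 were higher and 0 to 1 lower between the siRNAs.

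**Figure D1:**
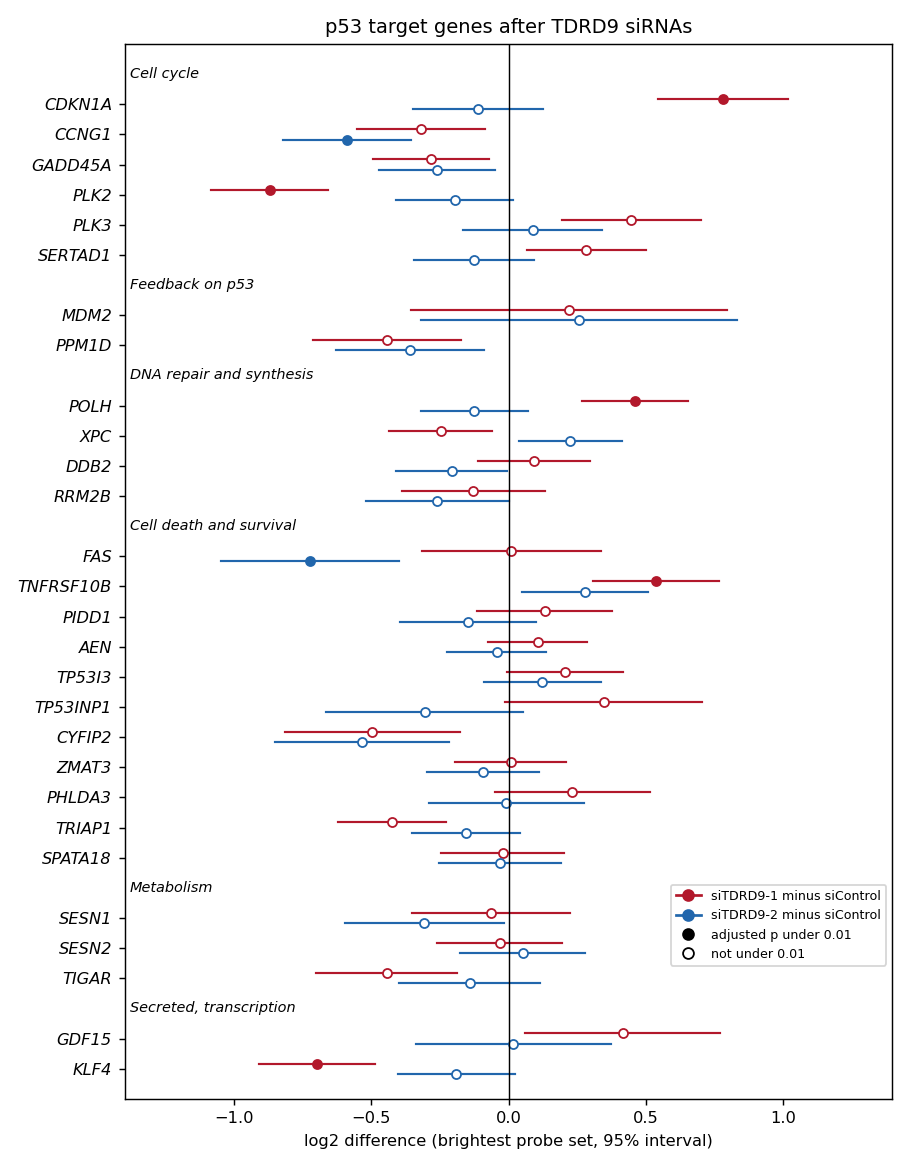
log2 difference from siControl (horizontal axis) of the brightest probe set of each of the 28 p53 target genes, with siTDRD9-1 in red above siTDRD9-2 in blue. Bars are 95% intervals from limma, and filled points passed an adjusted p of 0.01. The filled points lie on both sides of 0 with siTDRD9-1, for *CDKN1A*, *TNFRSF10B* and *POLH* to the right and *PLK2* and *KLF4* to the left, and the only 2 with siTDRD9-2, *FAS* and *CCNG1*, lie to the left.

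Among the 6 cell cycle genes, *CDKN1A* had the clearest pattern. Its log2 signals were 9.99, 10.25 and 9.84 with siTDRD9-1, 9.11, 9.12 and 9.17 with siTDRD9-2 and 9.16, 9.29 and 9.29 with siControl. All 3 siTDRD9-1 cultures lay above the other 6, and the siTDRD9-2 cultures overlapped siControl. The level with siTDRD9-1 was 172.1% of siControl, a difference of 0.78 (SE 0.108, adjusted p = 0.00108 in limma). With siTDRD9-2 the difference was -0.11 (95% interval -0.35 to 0.12, adjusted p = 0.583), and the direct difference between the siRNAs was 0.90 (adjusted p = 0.00103). The second probe set of *CDKN1A* gave 0.80, -0.02 and 0.82 for the same comparisons. With 1 array left out in turn, the adjusted p of the 2 differences of siTDRD9-1 went up to 0.00687 and 0.00755. Neither call was lost with any alternative that was run except the demand of a 2-fold change.

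*PLK2* encodes a polo-like kinase of centriole duplication and the stress response. It gave 9.47, 9.57 and 9.40 with siTDRD9-1, 10.29, 10.08 and 10.09 with siTDRD9-2 and 10.31, 10.28 and 10.46 with siControl. The siTDRD9-1 cultures lay below all others, the opposite side from *CDKN1A*, and the siTDRD9-2 range touched that of siControl. Its level with siTDRD9-1 was 54.7% of siControl (difference -0.87, SE 0.0976, adjusted p = 0.000325), and the direct difference between the siRNAs was -0.68 (adjusted p = 0.00263). The other 3 probe sets of *PLK2* had differences of -0.42 to -0.34 from siControl, none of which passed (adjusted p from 0.0781 to 0.182), and with the mean of the 4 probe sets the fall had an adjusted p of 0.0114. With siTDRD9-2 the brightest probe set had -0.20 from siControl and the other 3 had 0.23 to 0.31, and none passed. Between the siRNAs all 4 gave like values, from -0.69 to -0.58. That call was lost without siTDRD9-1 culture 1 or siTDRD9-2 culture 1, with an adjusted p of up to 0.0163.

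*CCNG1*, cyclin G1, was lowest with siTDRD9-2. Its signals were 8.56, 8.69 and 8.33 with siTDRD9-1, 8.28, 8.22 and 8.28 with siTDRD9-2 and 8.71, 8.94 and 8.88 with siControl. At this probe set both siRNA groups lay below siControl without overlap. The fall with siTDRD9-2 was to 66.6% of siControl (difference -0.59, SE 0.107, adjusted p = 0.0046), while siTDRD9-1 gave -0.32 (adjusted p = 0.0834), and the direct difference between the siRNAs was 0.27 (adjusted p = 0.18). With siTDRD9-1 the other 4 probe sets of *CCNG1* had differences of -0.17 to 0.05, each with overlap of siControl. With siTDRD9-2 they had -0.31 to -0.12, and with the mean of all probe sets of the gene the difference was -0.30 (adjusted p = 0.0369). The call was also lost without any siTDRD9-2 culture or without siControl culture 2 or 3 (adjusted p of up to 0.0285).

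The other 3 cell cycle genes did not pass. *SERTAD1*, which encodes a partner of the cyclin-dependent kinase CDK4, had a difference of 0.28 with siTDRD9-1 and of -0.13 with siTDRD9-2 (adjusted p = 0.0995 and 0.492), with all 3 siTDRD9-1 cultures above the rest. Its 2 differences differed by 0.41 (adjusted p = 0.0344). *PLK3*, another polo-like kinase, had 0.45 and 0.09 (adjusted p = 0.0299 and 0.70). *GADD45A*, a stress-induced growth arrest gene, had -0.28 with siTDRD9-1 and -0.26 with siTDRD9-2, and every siRNA culture lay below every siControl culture (adjusted p = 0.09 and 0.109).

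**Figure D2:**
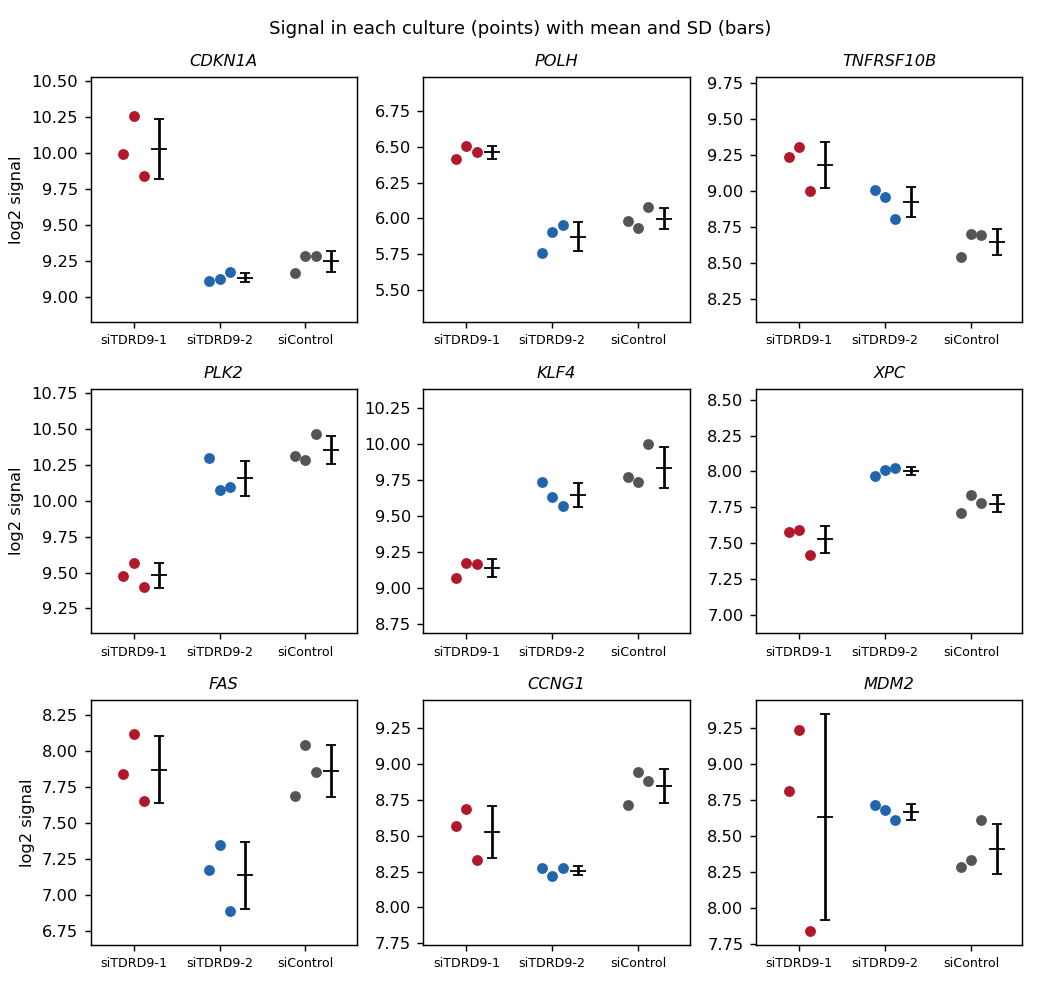
log2 signal (vertical axis, all panels spanning the same range) of the brightest probe set in each culture, for the 8 p53 target genes that passed in any comparison and for *MDM2*. Points are cultures, and bars beside them the mean and SD of 3. At these probe sets *CDKN1A* and *POLH* are high with siTDRD9-1 alone, *FAS* is low with siTDRD9-2 alone, and 1 siTDRD9-1 culture of *MDM2* lies at 7.84, below the other 8.

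The feedback genes showed no difference that passed. *MDM2* had signals of 8.81, 9.24 and 7.84 with siTDRD9-1, 8.72, 8.68 and 8.61 with siTDRD9-2 and 8.28, 8.33 and 8.61 with siControl. The spread with siTDRD9-1 was an SD of 0.716, against 0.055 with siTDRD9-2 and 0.174 with siControl, and the groups overlapped. The differences from siControl were 0.22 with siTDRD9-1 (95% interval -0.36 to 0.80, adjusted p = 0.699) and 0.26 with siTDRD9-2 (95% interval -0.32 to 0.83, adjusted p = 0.607). The first of these rests on single cultures, since it was 0.62 without siTDRD9-1 culture 3 (adjusted p = 0.023) and -0.08 without siTDRD9-1 culture 2 (adjusted p = 0.869). *MDM2* was read by 11 probe sets, whose differences ran from -0.06 to 0.32 with siTDRD9-1 and from -0.24 to 0.26 with siTDRD9-2, and 0 of the 11 passed in any comparison. *PPM1D* encodes a phosphatase that removes activating phosphates from p53. Its brightest probe set had differences of -0.44 for siTDRD9-1 and -0.36 for siTDRD9-2 (adjusted p = 0.0415 and 0.0854), but another of its 4 probe sets had 0.44 and 0.36 (adjusted p = 0.0124 and 0.0299). The direction for *PPM1D* thus depends on the probe set.

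Among the 4 genes of DNA repair and synthesis, *POLH* and *XPC* passed in opposite directions between the siRNAs. *POLH* encodes DNA polymerase eta, which copies past ultraviolet lesions. Its signals were 6.41, 6.50 and 6.46 with siTDRD9-1, 5.76, 5.91 and 5.96 with siTDRD9-2 and 5.99, 5.93 and 6.08 with siControl. As for *CDKN1A*, all siTDRD9-1 cultures lay above the other 6, and the other groups overlapped. The level was 137.7% of siControl (difference 0.46, SE 0.0888, adjusted p = 0.00704) and 150.1% of siTDRD9-2 (difference 0.59, adjusted p = 0.0034). With siTDRD9-2 the difference from siControl was -0.12 (95% interval -0.32 to 0.07), and over the 4 probe sets it ran from -0.25 to 0.30. At the probe set with 0.30 (adjusted p = 0.0988) all siTDRD9-2 cultures lay above siControl. Whether *POLH* was higher with siTDRD9-1 alone thus depends on the probe set. All 4 probe sets of *POLH* were higher with siTDRD9-1 in value, by 0.15 to 0.99 over siControl, and 2 of them passed. The call against siControl stood only without siTDRD9-2 culture 1 or 3 when 1 array was left out (adjusted p of up to 0.039), and that between the siRNAs was lost without culture 1 or 2 of either siRNA (up to 0.0169).

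*XPC*, whose product recognizes distorted DNA in nucleotide excision repair, was ordered the other way. Its signals were 7.58, 7.59 and 7.42 with siTDRD9-1, 7.97, 8.01 and 8.02 with siTDRD9-2 and 7.71, 7.84 and 7.78 with siControl. The siControl cultures lay between the siRNA groups, without overlap on either side. The differences from siControl, -0.25 with siTDRD9-1 and 0.23 with siTDRD9-2, did not pass (adjusted p = 0.0964 and 0.119), whereas the siRNAs differed by -0.47 (SE 0.0859, adjusted p = 0.00888). A second probe set gave -0.41 between the siRNAs (adjusted p = 0.0349). The call of *XPC* was lost with any of the 9 arrays left out (adjusted p from 0.0148 to 0.0371). *DDB2*, a sensor of ultraviolet damage and the gene with the paired half-sites, had 0.09 for siTDRD9-1 and -0.21 for siTDRD9-2 (adjusted p = 0.63 and 0.186). Its second probe set had -0.05 and -0.40 (adjusted p = 0.785 and 0.0108), with all siTDRD9-2 cultures below siControl, and 0.34 between the siRNAs (adjusted p = 0.0362). *RRM2B*, the p53-inducible subunit of ribonucleotide reductase, had -0.13 and -0.26 (adjusted p = 0.594 and 0.198) at its brightest probe set.

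Of the 11 genes of cell death and survival, the 2 death receptors passed, *TNFRSF10B* against siControl with siTDRD9-1 and *FAS* with siTDRD9-2. *FAS* encodes the receptor of the FAS ligand. It gave 7.84, 8.12 and 7.65 with siTDRD9-1, 7.17, 7.35 and 6.89 with siTDRD9-2 and 7.68, 8.04 and 7.86 with siControl. The siTDRD9-2 cultures lay below the other 6, and siTDRD9-1 overlapped siControl. The fall with siTDRD9-2 was to 60.5% of siControl (difference -0.73, SE 0.148, adjusted p = 0.00877), while siTDRD9-1 gave 0.01 (95% interval -0.31 to 0.34). The direct difference of 0.74 between the siRNAs had an adjusted p of 0.0145. Its second probe set had -0.45 with siTDRD9-2 (adjusted p = 0.111), and the mean of both had an adjusted p of 0.0255. Left-out arrays gave adjusted p from 0.0069 to 0.0476, and the call stood only without siTDRD9-1 culture 2 or 3.

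*TNFRSF10B*, a receptor of the death ligand TRAIL, had signals of 9.24, 9.31 and 9.0 with siTDRD9-1, 9.01, 8.96 and 8.81 with siTDRD9-2 and 8.54, 8.70 and 8.69 with siControl. Both siRNA groups lay above siControl without overlap. Its level with siTDRD9-1 was 145.2% of siControl (difference 0.54, SE 0.105, adjusted p = 0.00757), and siTDRD9-2 gave 0.28 (adjusted p = 0.115). The direct difference between the siRNAs, 0.26, did not pass (adjusted p = 0.189), and the other 2 probe sets gave -0.19 and -0.13 there. All 3 of its probe sets had positive differences with both siRNAs, from 0.21 to 0.54 and from 0.28 to 0.52. With the mean of the probe sets the difference with siTDRD9-1 was 0.38 (adjusted p = 0.0287). With 1 array left out, the call stood only without culture 3 of either siRNA (adjusted p from 0.00456 to 0.0394).

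The other 9 death and survival genes did not pass. *TP53INP1*, a nuclear stress protein gene, had 0.35 with siTDRD9-1 and -0.31 with siTDRD9-2, and the difference between the siRNAs of 0.65 had an adjusted p of 0.0394. *TRIAP1*, which encodes a mitochondrial survival protein, had -0.42 with siTDRD9-1 (adjusted p = 0.0115), the lowest adjusted p against siControl among the brightest probe sets of the genes that passed nowhere. *CYFIP2*, which encodes a subunit of the actin-regulating WAVE complex, had -0.50 and -0.53 with siTDRD9-1 and siTDRD9-2 (adjusted p = 0.0502 and 0.0334), and all siRNA cultures lay below siControl. *TP53I3*, a quinone oxidoreductase gene, had 0.21 and 0.12, and *PHLDA3*, whose product restrains the kinase AKT, 0.23 and -0.01. *PIDD1*, which encodes a scaffold for caspase-2 activation, had 0.13 and -0.15, and *AEN*, a nuclease gene, 0.11 and -0.04. *ZMAT3*, an RNA-binding zinc finger gene, had 0.01 and -0.09, and its second probe set 0.37 and 0.02 (adjusted p = 0.091 and 0.949). *SPATA18*, linked to mitochondrial quality control, had -0.02 and -0.03, with mean signals of 3.39 to 3.43 in the 3 groups against a median of 2.45 to 2.46 for the background probe sets of the array. In the direct comparison 10 of the 11 genes in this group had positive values, as did 54.8% of all genes, and 0 passed in limma at the adjusted threshold.

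The 3 metabolic genes did not pass either. *TIGAR*, whose product lowers the glycolytic signal fructose-2,6-bisphosphate, had -0.44 with siTDRD9-1, with all 3 cultures below the rest (adjusted p = 0.033), and -0.14 with siTDRD9-2. Its second probe set had -0.27 and -0.41 (adjusted p = 0.195 and 0.0472), so the order of the siRNAs depends on the probe set. The sestrins, which restrain the growth kinase complex mTORC1, gave -0.06 and -0.31 for *SESN1* and -0.03 and 0.05 for *SESN2*. The second probe set of *SESN1* gave 0.19 and -0.02. That of *SESN2* gave 0.28 and 0.31 (adjusted p = 0.1055 and 0.0635), with all siRNA cultures above siControl. *GDF15*, a secreted stress factor of the TGF-β family, had signals of 6.93, 6.84 and 6.59 with siTDRD9-1, 6.54, 6.66 and 5.96 with siTDRD9-2 and 6.40, 6.44 and 6.28 with siControl. Its difference with siTDRD9-1 was 0.42 (adjusted p = 0.139). Over its 5 probe sets the differences with siTDRD9-1 ran from 0.08 to 1.15, of which 0 passed (the lowest adjusted p was 0.0256). With siTDRD9-2 the difference was 0.02 (adjusted p = 0.967) and ran from -0.36 to 0.56 over the probe sets, so its direction depends on the probe set. Between the siRNAs the 5 probe sets had 0.07 to 0.69, and 0 passed.

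*KLF4* encodes a zinc finger transcription factor. Its signals were 9.07, 9.18 and 9.17 with siTDRD9-1, 9.74, 9.63 and 9.57 with siTDRD9-2 and 9.77, 9.74 and 10.00 with siControl. The siTDRD9-1 cultures lay below the other 6, as they did for *PLK2*. The fall was to 61.6% of siControl (difference -0.70, SE 0.0972, adjusted p = 0.00113), and with 1 array left out the adjusted p stayed at or below 0.00935. With siTDRD9-2 the difference was -0.19 (95% interval -0.40 to 0.02), and the direct difference between the siRNAs was -0.51 (adjusted p = 0.0115). The second probe set of *KLF4* had -0.19 with siTDRD9-1 (adjusted p = 0.474) and -0.48 between the siRNAs (adjusted p = 0.0661). With siTDRD9-2 it had 0.29 (adjusted p = 0.213), with all siTDRD9-2 cultures above siControl, so the direction with siTDRD9-2 depends on the probe set.

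**Figure D3:**
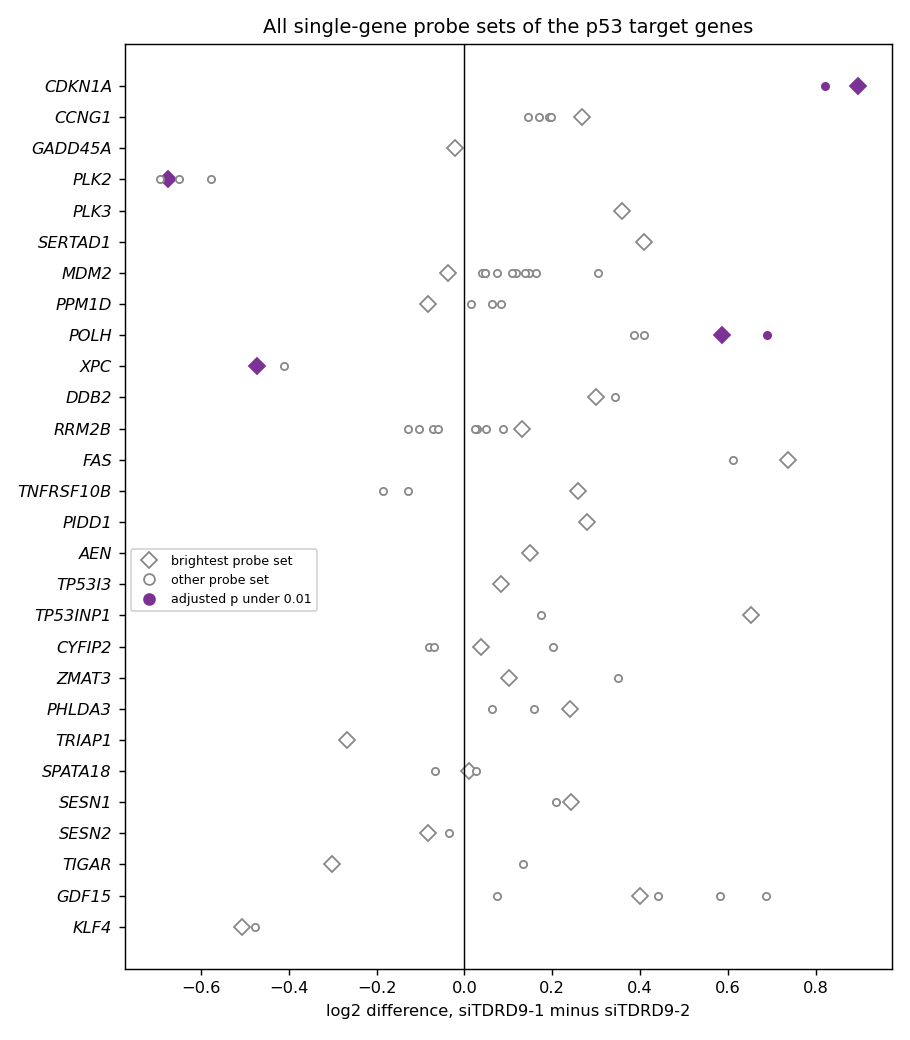
log2 difference of siTDRD9-1 minus siTDRD9-2 (horizontal axis) for all 82 single-gene probe sets of the 28 p53 target genes. Diamonds are the brightest probe set of a gene, circles its others, and filled symbols passed an adjusted p of 0.01. The 6 filled symbols belong to *CDKN1A*, *POLH*, *PLK2* and *XPC*, and the 4 probe sets of *PLK2* all lie between -0.69 and -0.58.

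Probe sets of 1 gene gave a like direction for some of these members and not for others. Both probe sets of *CDKN1A* passed against siControl and between the siRNAs, as did 2 of the 4 of *POLH*. *TNFRSF10B*, *PLK2*, *KLF4*, *FAS*, *CCNG1* and *XPC* each passed at 1 probe set in the comparison named above, with the other probe sets of the same sign in that comparison. Probe sets of 1 gene share its RNA, so they are not replicates of the treatment. Names ending in _s_at or _x_at mark probes that can also match other transcripts, and the brightest probe sets of *CDKN1A*, *PLK2*, *CCNG1*, *POLH*, *TNFRSF10B* and *MDM2* are of these kinds. Over the 20 genes that passed nowhere, the differences ran from -0.50 (*CYFIP2*) to 0.45 (*PLK3*) with siTDRD9-1 and from -0.53 (*CYFIP2*) to 0.26 (*MDM2*) with siTDRD9-2.

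To set the members beside the rest of the pathway, 5 further lists were read in the same fit. Of 22 regulators of p53, 19 were measured, and 0 passed in any of the 3 comparisons. Their median difference was -0.19 with siTDRD9-1 and -0.07 with siTDRD9-2, against -0.03 and -0.06 over all genes. Of 28 further p53 target genes outside the members, 25 were measured. With siTDRD9-1, 1 rose and 2 fell, with siTDRD9-2 0 rose and 3 fell, and between the siRNAs 1 was higher and 2 lower, so 22 did not pass in each. The medians were -0.12, -0.03 and -0.02.

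*IGFBP3*, which encodes a binding protein of insulin-like growth factors, had the largest difference of that list in this fit. It gave 10.06, 10.15 and 9.51 with siTDRD9-1, 11.56, 11.41 and 11.20 with siTDRD9-2 and 11.22, 11.33 and 11.18 with siControl. The siTDRD9-1 cultures lay well below the other 6 (difference from siControl -1.34, SE 0.157, adjusted p = 0.000412), and the direct difference between the siRNAs was -1.48 (adjusted p = 0.000538). *TNFRSF10D*, a decoy receptor of TRAIL, also fell with siTDRD9-1, by 1.03 on the log2 scale (adjusted p = 0.000106), and had -0.25 with siTDRD9-2. Its direction with siTDRD9-1 was thus opposite to that of *TNFRSF10B*, the signalling receptor of the same ligand. *PERP*, a desmosome gene, rose with siTDRD9-1 (0.77, adjusted p = 0.00609, up to 0.0324 with 1 array left out) and had 0.55 with siTDRD9-2 (adjusted p = 0.0284). *E2F7*, a repressor of cell cycle genes, fell with siTDRD9-2 by 0.69 on the log2 scale (adjusted p = 0.00802, up to 0.0409 with 1 array left out). *SFN* and *RAP2B*, which also fell with siTDRD9-2, had -0.49 and -0.59. *SFN*, which encodes a 14-3-3 protein of cell cycle arrest, was also the gene of this list that was higher between the siRNAs, by 0.62.

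A further list held 18 cell cycle genes that p53 is known to lower through p21 and the DREAM repressor complex. With siTDRD9-1, 1 rose, 0 fell and 17 did not pass, and the median was -0.11. With siTDRD9-2 1 rose and 1 fell, with a median of -0.09, and between the siRNAs 0 passed, with a median of 0.04. The gene that rose was *TOP2A*, a topoisomerase of dividing cells, with 0.72 and 0.65 for siTDRD9-1 and siTDRD9-2 (adjusted p = 0.000948 and 0.00151), and with the mean of its probe sets neither passed (0.25 and 0.18, adjusted p = 0.0629 and 0.159). *AURKA*, a mitotic kinase gene, fell with siTDRD9-2 by 0.50 on the log2 scale (adjusted p = 0.00325, up to 0.0218 with 1 array left out).

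Some members can also be induced by ATF4 and CHOP, transcription factors of the stress response, or as immediate early genes of growth factor signals. Of 12 ATF4 and CHOP targets, 1 rose with each siRNA and 0 fell, with medians of 0.02 and 0.20. Between the siRNAs 0 passed, with a median of -0.13. The gene that rose was *SLC7A11*, a cystine transporter gene, with 1.00 and 0.60 (adjusted p = 0.0003 and 0.00481, the second up to 0.0189 with 1 array left out). Of 12 immediate early genes, 0 passed with siTDRD9-1 and *FOSL1*, an AP-1 subunit gene, fell with siTDRD9-2 by 0.59 on the log2 scale (adjusted p = 0.00294, up to 0.0193 with 1 array left out). Between the siRNAs *EGR1*, a zinc finger factor gene, was higher by 1.15 (adjusted p = 0.00993, up to 0.0327 with 1 array left out). The medians of the immediate early genes were 0.07 with siTDRD9-1, -0.10 with siTDRD9-2 and 0.21 between the siRNAs. The last lay above the 0.14 of the 28 p53 target genes. *EGR1* gave 6.67, 6.97 and 7.34 with siTDRD9-1, 5.96, 5.41 and 6.17 with siTDRD9-2 and 6.45, 6.41 and 6.89 with siControl. The siTDRD9-2 cultures lay below the others, and those of siTDRD9-1 overlapped siControl.

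**Figure D4:**
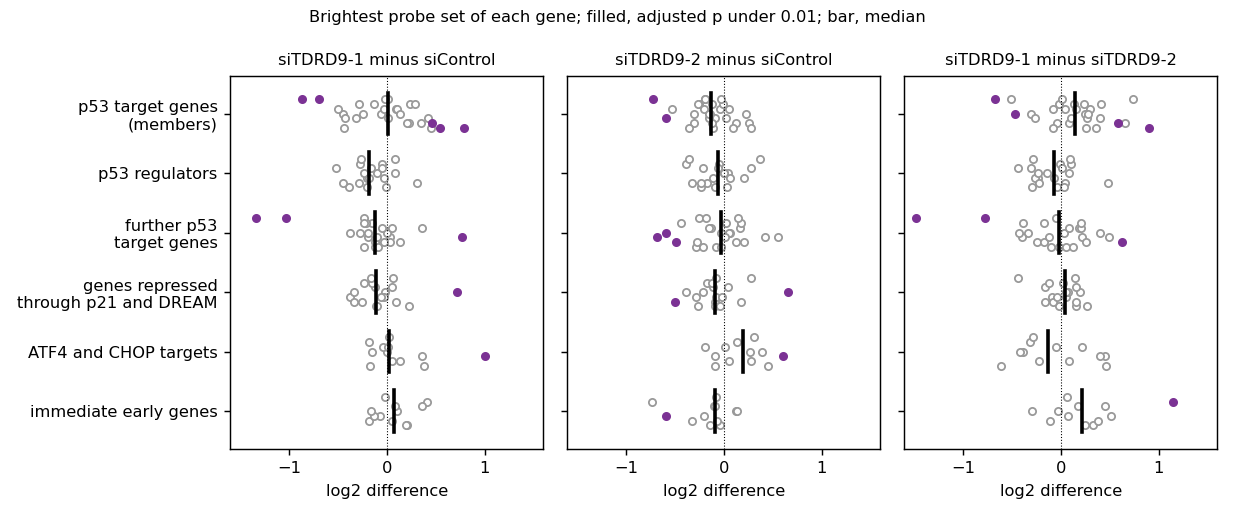
log2 difference (horizontal axes) of the brightest probe set of each gene, for the 28 p53 target genes and 5 further lists, in the 3 comparisons. Filled points passed an adjusted p of 0.01, and black bars are list medians. In the p53 regulators 0 of 19 points are filled in any comparison, and in the p53 target genes filled points lie on both sides of 0 with siTDRD9-1. Of all genes, 1.11% to 3.03% passed in a given direction and comparison.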

How the data were processed

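Transcript levels came from 9 Affymetrix PrimeView arrays of NCI-H1993 cells. The deposited log2 values were made by the authors with RMA in Affymetrix Expression Console, and were used as deposited. Versions and build are not given in the sources used here. The field on RNA isolation names HCT-shSLBP cells and that on labelling a kit for whole transcripts, whereas the sample labels, which were followed, name NCI-H1993. Of 49395 probe sets, 102 controls were left out, and 44988 of those tested name 1 gene. R 4.3.3 and limma 3.58.1 fitted 3 group means, with empirical Bayes moderation and Benjamini-Hochberg adjustment over 49293 probe sets, and the script was tested on simulated data. Adjusted p-values in the text are from this limma fit. The members, the lists and the rule for named genes were chosen with earlier results of these data known. Among these results was the difference of *CDKN1A* between the siRNAs. Genes named with all values passed in any comparison at the brightest probe set, besides *CDKN1A* and *MDM2*, and of each list up to 4 passing genes are named by size of change. *GDF15*, *SFN*, *RAP2B*, *CDH5* and *COL1A1* were given in more detail after their values were seen. Half-sites were searched with Python 3 and NumPy in RefSeq windows. Alternatives were scaling by the median or by cyclic loess, weights for arrays, a trend in the variance, a replicate block, fitting 2 groups only, leaving out dim probe sets, averaging the probe sets of a gene, other thresholds and leaving out each array. RT-qPCR, imaging and other assays of the study were not analysed here.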

Additional observations from a re-analysis of the deposited data

Results flagged for a closer look

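For 4 p53 target genes the change with siTDRD9-1 differed from the change with siTDRD9-2 in a direct test, at an adjusted p under 0.01 in limma. That *CDKN1A* differs between the siRNAs was known when this set of genes was chosen, so its call is no independent result. The difference (siTDRD9-1 minus siTDRD9-2, log2) was 0.90 for *CDKN1A* and 0.59 for *POLH*, -0.68 for *PLK2* and -0.47 for *XPC*. Of all genes, 1.27% were higher and 1.11% lower at this threshold. In each of the 4 genes the 3 siTDRD9-1 cultures and the 3 siTDRD9-2 cultures did not overlap, as for *CDKN1A* with 9.84 to 10.25 against 9.11 to 9.17. This does not set the 4 genes apart, since *FAS*, *DDB2*, *KLF4* and further members that did not pass here had no overlap either. Of the 4 genes, *CDKN1A* alone passed with each of the 9 arrays left out, *PLK2* was lost in 2 of 9 such fits, *POLH* in 4 and *XPC* in 9. *TDRD9* itself was lower with siTDRD9-1 than with siTDRD9-2 by a log2 difference of -1.48, and whether the depth of the knockdown has a part in these differences was not tested.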

How the results depend on the processing

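The 2 calls of *CDKN1A* passed under all alternatives except the 2-fold threshold. The members rising with siTDRD9-1 against siControl were 3 in the fit reported, and 1 with the replicate number as a block, 1 in a fit of 2 groups, 1 with median centring, 7 with array weights, 0 at 2-fold and 1 to 3 with 1 array left out. The 2 that fell became 5 at an FDR of 0.05, 7 with array weights, 0 at 2-fold and 2 to 3 with 1 array left out. The 2 that fell with siTDRD9-2 became 1 in a fit of 2 groups, 0 with the mean of probe sets, 0 at 2-fold and 0 to 2 with 1 array left out. Between the siRNAs, the 2 higher became 5 at an FDR of 0.05, 8 with array weights, 1 in a fit of 2 groups, 0 at 2-fold and 1 to 3 with 1 array left out. The 2 lower became 5 with array weights, 1 with the block, 0 in a fit of 2 groups, 0 at 2-fold and 0 to 1 with 1 array left out. The difference of *MDM2* with siTDRD9-1 ran from -0.0824 without siTDRD9-1 culture 2 to 0.6153 without culture 3. For 0 members did a called difference change sign. Besides *CDKN1A*, the single genes described by the rule for named genes (members, *TDRD9* and list genes) had 25 called differences, of which 7 were lost in a fit of 2 groups, 6 with the mean of probe sets, 5 with the block, 3 with median centring and 2 with cyclic loess. With each array left out in turn, these 25 differences kept their call 141 times and lost it 84 times. The cause of these changes was not tested.

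The deviations of same-numbered cultures from their group means correlated at -0.15 to 0.15, and those of other numbers at -0.26 to 0.17. Such correlations from few cultures cannot show whether cultures of 1 number shared an experiment, so a pairing by number remains possible. With 3 arrays a group, the 95% interval of *MDM2* with siTDRD9-1 spans -0.36 to 0.80 at its brightest probe set, and an exact permutation test of 3 against 3 cannot go below p = 0.1.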
